A study of Mus musculus with 8 samples.

Results

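The genes of the Mmp, Adam, Adamts and Timp families were taken by symbol, as every entry of the expression table whose Entrez identifier maps to a mouse symbol of one of these families followed by a number. This gave 80 genes of the 27179 entries in the table, and 23 of the 80 carried at least 1 peak in the m6A peak lists, which together name 9153 genes. The values come from C2C12 cells, an immortalized mouse myoblast line grown here on dishes coated with rat tail collagen. The GM samples were proliferating cells that covered about 50% of the dish and were kept in 10% fetal bovine serum. For the 3d DM samples the cells had passed 90% confluence and then spent 3 days in 2% horse serum, which induces differentiation and fusion into myotubes. Each state has 2 input RNA libraries and 2 libraries immunoprecipitated (IP) with an antibody against m6A (MeRIP-seq), and the states differ in serum, confluence and time together, so these cannot be told apart. The labels do not say that the 2 replicates of a state were separate cultures, so p-values cannot be taken as spread between cultures. They speak only for these samples. With the deposited RNA values their standard errors follow a trend fitted over all tested genes and not a gene's own 2 replicates.

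Matrix metalloproteinases (Mmp) are zinc proteases that cut collagens, proteoglycans and other proteins of the extracellular matrix, and several of them sit in the cell membrane. Adam proteases are membrane proteins that release the outer parts of receptors, ligands and adhesion molecules, whereas Adamts proteases are secreted and act mainly on proteoglycans, procollagens and microfibrils. Timp proteins are secreted inhibitors of these enzymes, and Timp2 also helps Mmp14 to activate the proform of Mmp2. In muscle these families are known for their part in myoblast migration, fusion and remodelling of the matrix around the fibres.

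m6A is found mainly at a short RNA motif, searched here on the strand of the transcript as the letters GGACA or, with another last base, as GGACC or else as GGACT, where T stands for U. The sites printed first lie in peak regions of the families that were found in all 4 peak lists, and each is the match nearest to the middle of the stretch that the 4 lists share. They show a motif within the stretches where peaks were most repeatable, and do not place the m6A signal at that motif. The shared stretch held 6 matches in 628 bases for Adamts7 and 4 in 955 bases for the end of Mmp14. It held 3 each for Adamts5, Adamts14 and Timp2, 2 for Adam17, and 1 each for Adamts1 and the start of Mmp14. Capitals mark the motif, and the letters are those of GENCODE M21 transcripts on mm10, 5′ to 3′.
Adamts5: agcaacaaggtgGGACCacactctacaca
Adamts1: agagacattaacGGACAccctgcttccga
Adamts7: catctggggcagGGACAgccctcttgaac
Adamts14: accagatgtggcGGACAggatctccccag
Adam17: tggcctgctctaGGACAtatacctgcaga
Mmp14, start: ccccgacgccggGGACCatgtctcccgcc
Mmp14, end: cttctaccacaaGGACTttgcctctgaag
Timp2: cattgtgccctgGGACAcgcttagcatca

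The Adamts5 site is at chr16:85862776-85862804 (minus strand), in the coding sequence, at position -181 from its end. The Adamts1 site at chr16:85795633-85795661 (minus strand) and the Adamts14 site at chr10:61198669-61198697 (minus strand) are also in coding sequence, at -172 and -206. The Adamts7 site at chr9:90193930-90193958 (plus strand) lies far inside the coding sequence, at -1121, and the Timp2 site at chr11:118310626-118310654 (minus strand) at -261. The Adam17 site at chr12:21325237-21325265 (minus strand) and the second Mmp14 site at chr14:54440694-54440722 (plus strand) fall just past the coding sequence, at positions 24 and 35 of the 3′ UTR. In the first Mmp14 site, chr14:54431849-54431877 (plus strand), 0 bases separate the motif from the start codon. No match was found in the shared stretches of Adam15, Adamts6, Mmp2, Mmp24 and the second Timp2 region, which says only that these letters are not there. The Adam9 region was not searched, because its lines of lowest p in the 4 lists share no stretch of 20 bases or more on 1 placed transcript. Within 200 bases at the middle of a peak, 11 of 13 regions of the families (84.6%) held the motif, against 62.8% of 5630 regions of all genes. In windows of the same length outside peaks of the same transcripts the shares were 52.9% and 47.1%. A match is a description of the sequence and does not show that its adenosine is methylated.

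The state of the cells followed the labels. Mki67, a proliferation marker, fell from 3586 and 3659 in GM to 446 and 760.4 in 3d DM, and the myotube markers Myog, Myh3, Mymk and Ckm rose. The GM libraries were not alike in this respect: Myog was 4.56 times, Myh3 3.91 times and Mymk 6.88 times as high in GM replicate 1 as in GM replicate 2, while Mki67 differed by a ratio of 0.98. The 4 myoblast markers were all detected but did not move together. Desmin (Des) rose from 12764 and 5945 in GM to 21225 and 23528 in 3d DM, whereas Myf5 fell from 397.4 and 355.2 to 58.5 and 121.2. Myod1 and Cdh15 overlapped between the states. Macrophage markers summed to 18.1 to 26.4 in GM and 11.5 to 17.0 in 3d DM, nearly all of it Cd68, and endothelial markers to at most 10.5. Of the fibroblast markers, Thy1 was listed at 0 in all 4 libraries, and the sums of 36.2 to 102.4 in GM and 74.0 to 76.7 in 3d DM were mostly Pdgfra. The part of other cells in the results was not tested. Depth is unknown, because the values are a normalized signal and not read counts, and 1 entry without a symbol takes 24.4% to 41.3% of a column's total.

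At the level of input RNA, 26 of the 80 genes reached the minimum, a value of 25.1 (2 cpm, a column's total taken as depth) in 2 or more libraries, and were tested with limma among 11406 genes. With the deposited values, 9 of the 26 rose in 3d DM (34.6%), against 7.01% of all tested genes, and 1 fell (3.85%), against 9.96%. The genes that rose were the proteoglycan-cleaving Adamts1, Adamts4 and Adamts5, the procollagen-processing Adamts2 and Adamts14, Adamts16, the gelatinase Mmp2, the membrane-type Mmp15 and Adam12, and the gene that fell was Adam8 (Benjamini-Hochberg adjusted p under 0.05). The median log2 fold change (3d DM minus GM, of value + 1) was 0.57 over the 26 genes and -0.22 over all tested genes. When the libraries were rescaled by median-of-ratios factors, which moves that overall median to 0.0055, 11 rose (42.3%, against 12.0% of all genes) and 1 fell (3.85%, against 11.2%). Timp2, Mmp14 and Adamts7 were then called as well, and Adam12 was not. The genes called under both scalings had larger adjusted p-values after rescaling, from 0.00194 for Adamts4 to 0.0209 for Mmp2. Of all calls over the tested genes, 41.3% were rises with the deposited values and 51.8% after rescaling. As deposited, both 3d DM libraries lay above both GM libraries for 12 of the 26 genes (46.2%, against 16.8% of all tested genes). Both 3d DM libraries lay below both GM libraries for 3 (11.5%, against 37.0%). These shares depend on the scaling of the libraries and were not counted after rescaling. The calls rest on few libraries. As deposited, fewer genes of the families were called whenever 1 replicate was left out. After rescaling more were called without a GM replicate and fewer without a 3d DM replicate. The share over all tested genes was not counted in those fits, so this cannot be read as a trait of the families. The log2 fold changes of the called genes kept their sign. That of Adam12 ran from 0.45 without GM replicate 1 to 3.01 without GM replicate 2. For Mmp2 it was 2.80 and 1.13 in these 2 fits.

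**Figure D1:**
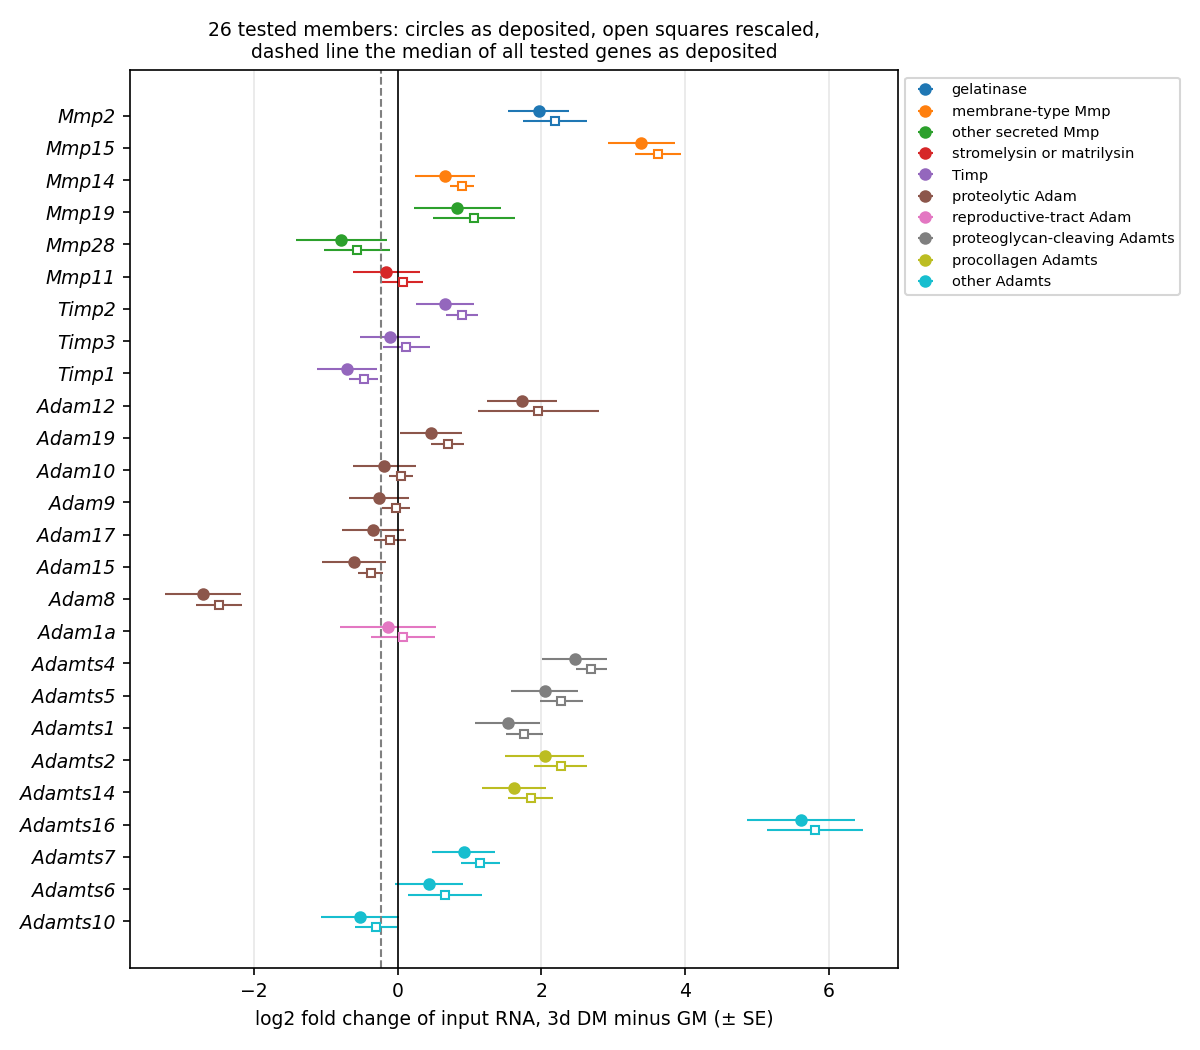
log2 fold change of input RNA (3d DM minus GM, value + 1) with its SE for the 26 tested genes, grouped and coloured by role, as deposited (circles) and after median-of-ratios rescaling (open squares). The dashed line is the median of all 11406 tested genes (-0.22). The tested proteoglycan-cleaving and procollagen Adamts genes lie between 1.54 and 2.47 as deposited, Adamts16 is at 5.62, and Adam8, at -2.71, is the lowest.

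Among the secreted gelatinases, Mmp2, which degrades denatured collagen and collagen IV, had values of 921 and 290.1 in GM against 1660.2 and 2457 in 3d DM. Both 3d DM libraries lay above both GM libraries, which themselves differed 3.18 times, GM replicate 1 being the higher as it was for the myotube markers. The log2 fold change was 1.96 ± 0.43 (SE, limma, adjusted p = 6.73e-05, n = 2 against 2), and without GM replicate 2 it was 1.13 (adjusted p = 0.465). Mmp9, the other gelatinase, was listed at 4.67 or less in every library and was not tested.

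Mmp15, a membrane-type protease, had values of 116.9 and 53.2 in GM against 735.2 and 959.7 in 3d DM. The 3d DM libraries were well above both GM libraries, a 10.5-fold change (log2 3.39 ± 0.46, adjusted p = 1.62e-11, after rescaling 0.00254). Mmp14, the membrane-type protease that activates proMmp2, was at 1899 and 1618 in GM against 2210 and 3488 in 3d DM. Its groups did not overlap either, but the log2 fold change of 0.66 ± 0.41 passed the threshold only after rescaling (deposited adjusted p = 0.323, rescaled 0.89 and adjusted p = 0.0156). Of the other tested Mmp genes, Mmp19, Mmp28 and Mmp11 overlapped between the groups as deposited, with log2 fold changes of 0.83, -0.78 and -0.16. After rescaling Mmp19, at 40.6 and 13.1 in GM against 49.7 and 49.2 in 3d DM, did not overlap and was not called (adjusted p = 0.227). None of the 4 collagenase genes (Mmp1a, Mmp1b, Mmp8 and Mmp13) reached the minimum, the highest value among them being 2.21.

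The inhibitor genes did not pass the test with the deposited values. Timp2 had the highest value of the 80 genes, at 8689 and 5824 in GM against 9897 and 12833 in 3d DM. Both 3d DM libraries were above GM, and the change was 0.66 ± 0.40 as deposited (adjusted p = 0.302) and 0.89 ± 0.23 after rescaling (adjusted p = 0.039). Timp1 was at 2116 and 2439.6 in GM against 1208 and 1610.3 in 3d DM. It was thus lower in both 3d DM libraries, with a log2 difference of -0.70 ± 0.42, which was not called under either scaling (adjusted p = 0.288 and 0.149). Timp3, which binds to the matrix, was at 1209 and 1979.9 in GM against 1087 and 1895 in 3d DM, so the values of the states were interleaved. Timp4 did not exceed 4.87.

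**Figure D2:**
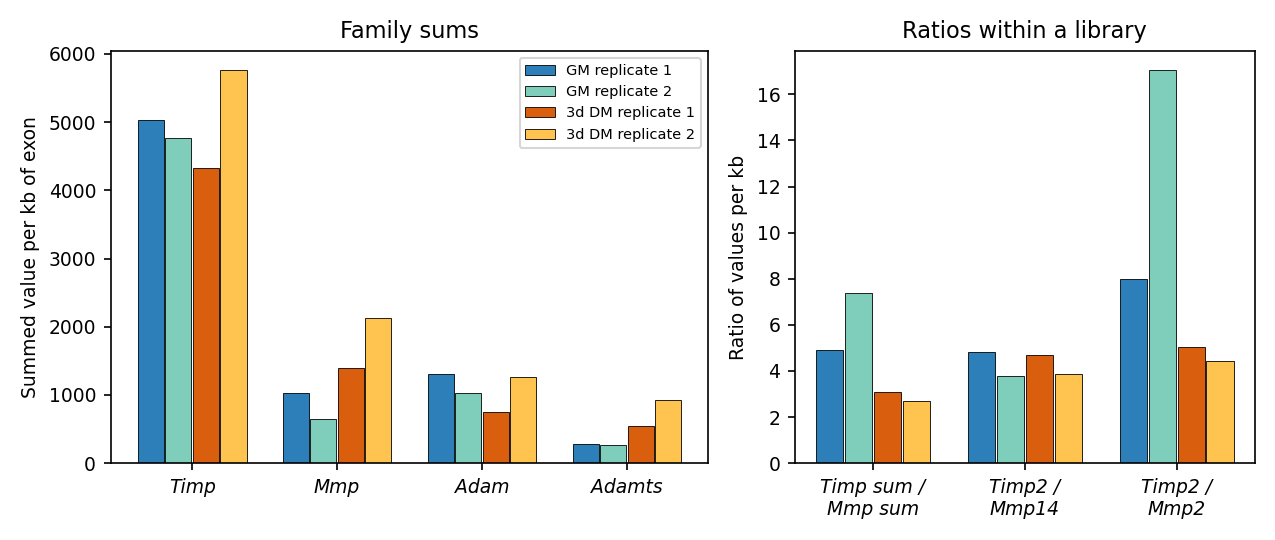
Left, values per kb of exon summed over each family in every library (y axis, normalized value per kb). Right, ratios of values per kb within a library. With the deposited values, the Timp sum is 4323 to 5758 in the 4 libraries. The Mmp and Adamts sums are higher in both 3d DM libraries than in GM. Timp2 over Mmp14 spans 3.78 to 4.80 without a split between the states.

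Levels can be set between genes only per length, and dividing by the summed exon length of each gene in RefSeq put inhibitor RNA above protease RNA. Summed per kb with the deposited values, the Timp genes were at 5035 and 4772 in GM against 4323 and 5758 in 3d DM, so the groups overlapped. This overlap depends on the scaling. The median-of-ratios factors lower GM replicate 1 and raise 3d DM replicate 1, and both 3d DM sums then lie above those of GM. The Mmp genes were at 1025 and 646 in GM against 1396 and 2129 in 3d DM, and the Adamts genes at 276 and 267 against 549 and 926. The ratio of the Timp sum to the Mmp sum, which no scaling of a library can change, was 4.91 and 7.39 in GM against 3.10 and 2.70 in 3d DM. It was lower in both 3d DM libraries, as was the ratio of Timp to Adamts, at 7.87 and 6.22 after 18.3 and 17.9 in GM. With 2 libraries against 2 an exact two-sided permutation test cannot go below p = 0.333, which is the value for both ratios. The Adam sum overlapped between the states, at 1301 and 1035 in GM against 753.3 and 1267 in 3d DM.

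Shares within the families separated the libraries of the states as well. Timp2 made up 47.6% and 33.7% of the Timp sum per kb in GM and 63.2% and 61.5% in 3d DM. Mmp14 made up 48.7% and 65.9% of the Mmp sum in GM and 41.6% and 43.1% in 3d DM, Mmp2 29.2% and 14.6% against 38.7% and 37.5%, and Mmp15 2.64% and 1.91% against 12.2% and 10.4%. None of these shares overlapped between the states, and each again has the smallest exact p of 0.333. For the 3 genes of the Mmp2 activation complex, Timp2 over Mmp14 per kb was 4.80 and 3.78 in GM against 4.70 and 3.86 in 3d DM, or 4.29 ± 0.72 and 4.28 ± 0.59 (mean ± SD). Mmp14 over Mmp2 was 1.67 and 4.51 in GM against 1.08 and 1.15 in 3d DM. By the mean value per kb of each state, the highest tested genes in 3d DM were Timp2, Timp1, Mmp14, Mmp2 and Adam9, in that order, and in GM Timp1, Timp2, Adam9, Mmp14 and Timp3. The GM order is not that of each library, since in GM replicate 1 Timp2 was above Timp1, Mmp14 above Adam9 and Mmp2 above Timp3. In bulk RNA, fewer cells of a type and less RNA per cell cannot be told apart.

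Of the 19 Adamts genes, 9 were tested and 6 rose, where 7.01% of all tested genes rose. Their median log2 fold change was 1.62. All 3 tested genes of the proteoglycan-cleaving group rose. Adamts4 had values of 162 and 121.4 in GM against 572 and 1063 in 3d DM, Adamts5 153.7 and 89.3 against 337.8 and 707.4, and Adamts1 191.1 and 249.9 against 486 and 832. In all 3 genes both 3d DM libraries exceeded both GM libraries, and in all 3 the second 3d DM replicate was the highest. The log2 fold changes were 2.47 ± 0.46 for Adamts4 (adjusted p = 1.42e-06), 2.05 ± 0.47 for Adamts5 (adjusted p = 0.000163) and 1.54 ± 0.45 for Adamts1 (adjusted p = 0.00605). Adamts1 was not called with the replicate block (adjusted p = 0.0592), nor with any 1 of the 4 replicates left out. Adamts4 lost its call without either 3d DM replicate, and Adamts5 also without GM replicate 2. With 1 replicate left out the log2 fold change was 2.02 to 2.91 for Adamts4 and 1.52 to 2.58 for Adamts5. That of Adamts1 was 1.15 to 1.92. Their share of the Adamts sum per kb was 30.4% and 30.6% in GM against 42.2% and 46.0% in 3d DM. The other genes of this role were too low to be tested, Adamts15 being the highest of them at 5.31 and 2.01 in GM against 18.3 and 31.3 in 3d DM.

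Adamts2 and Adamts14 remove the amino-terminal propeptide of fibrillar procollagens. Adamts2 was at 27.2 and 38.1 in GM against 135.2 and 137.2 in 3d DM (log2 fold change 2.05 ± 0.54, adjusted p = 0.00184). Adamts14 was at 203.7 and 327.1 in GM against 661.1 and 959.2 in 3d DM (1.62 ± 0.45, adjusted p = 0.00285). Adamts14 was not called with any 1 of the 4 replicates left out (log2 fold change 1.28 to 1.96). Adamts2 was not called without GM replicate 1 or without either 3d DM replicate. Its log2 fold change was 1.81 to 2.28 with 1 replicate left out. Neither gene had overlapping groups, and Adamts3, the third of this role, was listed at 1.00 or less. Adamts16 went from 2.14 and 0.002 in GM to 70.7 and 105.2 in 3d DM. This gave the highest log2 fold change of the families (5.62 ± 0.75, adjusted p = 3.94e-12, after rescaling 0.00431). As its GM values are close to 0, this value depends on the pseudocount, and it ranged from 4.19 to 7.50 over the settings tried. Adamts7, which cleaves cartilage oligomeric matrix protein, was at 599.5 and 315.1 in GM against 629.5 and 1082 in 3d DM. Its 3d DM libraries were the higher ones and it was called only after rescaling (0.92 ± 0.44, adjusted p = 0.149; rescaled 1.15, adjusted p = 0.0319). Adamts6 and Adamts10, both linked to fibrillin microfibrils, overlapped between the groups as deposited, with log2 fold changes of 0.44 and -0.52. After rescaling Adamts10, at 78.8 and 73.3 in GM against 53.7 and 71.0 in 3d DM, did not overlap and was not called (adjusted p = 0.505).

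**Figure D3:**
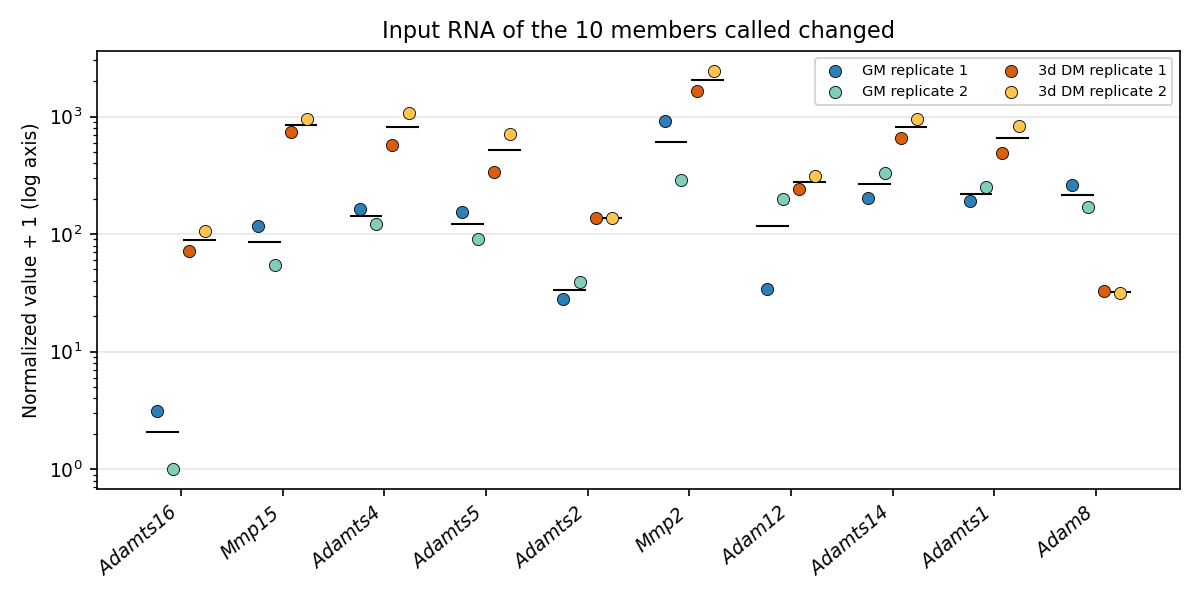
Normalized value + 1 (log axis) in each of the 4 input libraries for the 10 genes with an adjusted p under 0.05, with a line at the mean of each state. In the 9 genes to the left both 3d DM libraries lie above both GM libraries, and in Adam8 both lie below. The GM libraries of Adam12 are as far apart as 33.1 and 199.6.

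Among the Adam genes, 8 of 34 were tested, and 2 passed the test in opposite directions. Over all tested genes 7.01% rose and 9.96% fell. Adam12 (meltrin alpha), known from myoblast fusion, had values of 33.1 and 199.6 in GM against 242 and 310.0 in 3d DM. GM replicate 2 came close to the 3d DM libraries and GM replicate 1, the one with more of the myotube markers, was the low one. The change of 1.73 ± 0.49 (adjusted p = 0.00379) was not called after rescaling (adjusted p = 0.148), and without GM replicate 1 it was 0.45 (adjusted p = 0.88). Adam8, a sheddase best known from leukocytes, was at 260.9 and 167.6 in GM against 31.6 and 30.7 in 3d DM. Both 3d DM libraries were far below GM, at -2.71 ± 0.53 on the log2 scale (adjusted p = 5.89e-06, after rescaling 0.00603). The 4 macrophage markers were all too low to be tested. Cd68 was at 26.4 and 16.1 in GM against 14.7 and 9.94 in 3d DM. Adgre1 was listed at 0 in every library, Csf1r at 2.00 or less and Ptprc at 2.21 or less. The part of other cells in the Adam8 change was not tested.

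The 2 main sheddases did not pass the test. Adam10, which cleaves Notch receptors, was at 735.9 and 664.3 in GM against 487.1 and 774.3 in 3d DM. Adam17, which releases TNF and ligands of the EGF receptor, was at 967 and 593 in GM against 464.2 and 771 in 3d DM. In both genes the groups overlapped, with log2 fold changes of -0.19 ± 0.44 and -0.34 ± 0.44, and that of Adam10 was 0.044 after rescaling. As deposited, Adam9 and Adam19, the other meltrins, overlapped as well (-0.26 ± 0.42 and 0.47 ± 0.43). After rescaling Adam19 was at 815.9 and 601.4 in GM against 1009 and 1285.2 in 3d DM. These groups did not overlap, but the gene was not called (0.70 ± 0.23, adjusted p = 0.0767). Adam15 was lower in both 3d DM libraries (-0.61 ± 0.45, adjusted p = 0.435). Of the 22 Adam genes with a known place in the reproductive tract, 1, Adam1a, was tested, and its groups overlapped. Of the 54 genes of the families that were not tested, 29 had every value under 0.01, and the highest value among the other 25 was 31.3.

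Peaks were called by the authors' peak caller in each sample against its own input, and the fold is the ratio of IP to input signal. Genes of the families with a peak numbered 19 in each GM list and 20 and 16 in the 3d DM lists, 19.0 ± 0.0 against 18.0 ± 2.83 (mean ± SD, exact two-sided permutation test, p = 1). The difference was within the spread of the 3d DM replicates and changed sign at a peak p of at most 1e-05, where the lists held 10, 12, 16 and 12 such genes. Among tested genes, 22 of the 26 had a peak in at least 1 list (84.6%, against 75.1% of all tested genes) and 12 in all 4 (46.2%, against 42.0%). The 4 tested genes without any peak were Timp1, Adam8, Adamts10 and Adamts16. 0 of the 23 had a peak in both GM lists and neither 3d DM list, against 3.56% of all genes with a peak, and 0 in both 3d DM lists and neither GM list, against 2.31%.

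Lines on the same strand whose exonic blocks share at least 1 bp were joined, which gave 49 peak regions in the families, 14 of them in all 4 lists (28.6%, against 30.6% of 19516 regions of all genes). The 14 lay on 12 genes: Adam9, Adam15, Adam17, Adamts1, Adamts5, Adamts6, Adamts7, Adamts14, Mmp2, Mmp24, and 2 regions each on Mmp14 and Timp2. Adamts4 is not among them, since its peaks in the 4 lists do not all touch. Where a list has several lines in a region, the highest fold was taken. Adamts5, with the site printed above, had folds of 14.9 and 14.9 in GM against 9.21 and 8.98 in 3d DM. The GM folds were the higher ones, but on thinner evidence, the lowest p-values being 0.000166 and 2.51e-05 in the GM lists, with 1.26e-32 and 5.62e-09 in those of 3d DM. Adamts1 had folds of 10.2 and 7.60 in GM against 12.9 and 9.81 in 3d DM, and Adamts7 7.79 and 11.4 against 5.50 and 5.40. The Adamts7 groups did not overlap, whereas those of Adamts1 did.

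The regions on the abundant Mmp14, Mmp2 and Timp2 transcripts had folds from 1.28 to 12.7. The region at the start codon of Mmp14 had folds of 2.26 and 2.41 in GM against 1.58 and 4.73 in 3d DM, and the region at its end 8.24 and 3.53 against 12.7 and 3.65. In each of them the 3d DM values lay on both sides of a GM value. The 3′ UTR region of Mmp2 had folds of 3.50 and 2.26 in GM against 2.54 and 1.98 in 3d DM, and the longer Timp2 region, which runs from the 5′ UTR to the 3′ UTR, 1.89 and 3.18 against 1.62 and 2.04. Adam17 was at 5.44 and 4.36 in GM against 3.48 and 4.86 in 3d DM. Each of these 5 regions had overlapping values between the states.

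**Figure D4:**
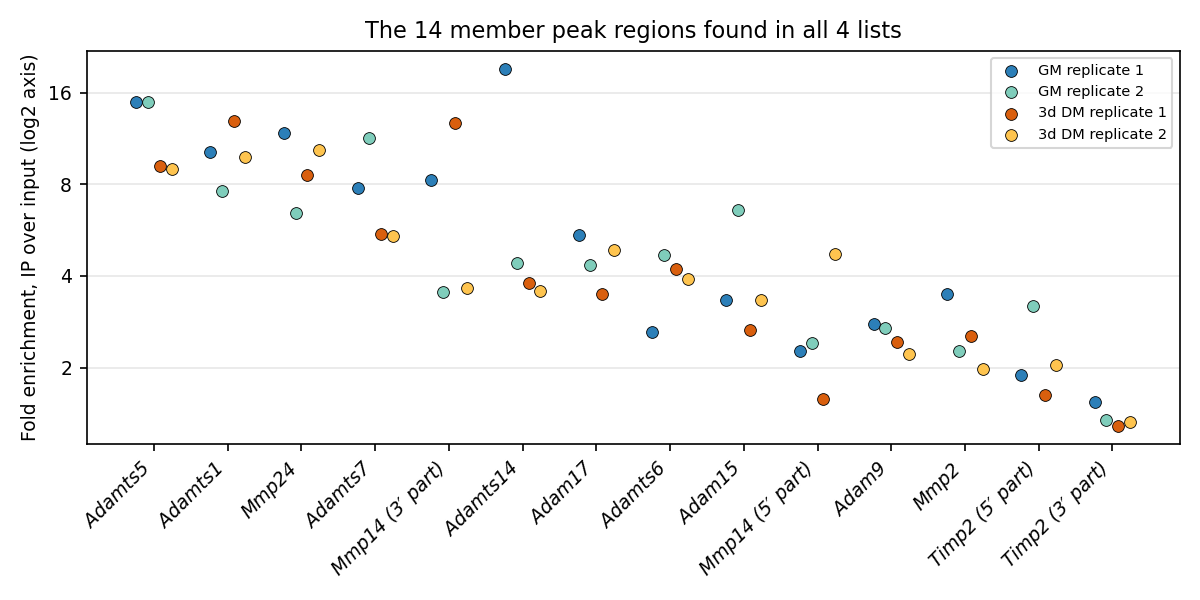
Fold enrichment of IP over input (log2 axis) in each library for the 14 peak regions of the families that were found in all 4 lists, ordered by their mean. Adamts5, Adamts1, Mmp24 and Adamts7 lead with folds between 5.40 and 14.9, the 2 Timp2 regions are lowest, and in 9 of the 14 regions the GM and 3d DM points lie among each other.

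When the log2 folds of the 14 regions were compared between the states with limma within 5976 regions of all genes, 0 had an adjusted p under 0.05, against 0% of all regions, and 0 of the 14 had an unadjusted p under 0.05, against 238 of all regions. The median log2 difference (3d DM minus GM) was -0.24 over the 14 regions, 9 of which were lower in 3d DM, and -0.11 over all regions. The differences of the 14 regions ran from -1.33 ± 0.64 (SE) at Adamts14 to 0.35 ± 0.43 at Adamts1. In 5 of the 14 regions (35.7%, against 21.7% of all regions) both 3d DM folds were below both GM folds, namely those of Adamts5, Adamts7, Adamts14, Adam9 and the 3′ UTR region of Timp2, and in 0 of the 14 both were above, against 9.22%. The choice of the highest line decides this for 4 regions. The lines of Adamts14 ran from 3.41 to 19.2 in GM replicate 1, and with the lowest line of each library its folds were 3.41 and 4.07 in GM against 3.48 and 3.34 in 3d DM, which overlap. The lowest lines of the region at the end of Mmp14 were 2.16 and 2.79 in GM against 4.47 and 2.98 in 3d DM, which do not overlap. Those of Mmp24 were 2.69 and 6.44 in GM, both under the 8.57 and 10.4 of 3d DM. The Mmp24 line of 2.69 is a separate peak at chr2:155818276-155818366 that touches neither 3d DM peak. Over the stretch of the 3d DM peaks, GM replicate 1 had a fold of 11.8. For Adam15 the lowest lines, 3.16 and 5.83 in GM against 2.39 and 3.09 in 3d DM, also separate the states. The standard errors of the 14 differences were 0.41 to 0.65, as large as most of the differences themselves.

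Peaks of the families lay mostly in the 3′ UTR and the coding sequence, as did those of all genes. The share of their peaks that touched the 3′ UTR was 61.5% to 76.9% in the 4 lists (all peaks 55.2% to 61.4%) and the share that touched coding sequence 53.8% to 57.7% (all peaks 67.0% to 70.8%). The middle of a peak lay within 200 bases of the end of the coding sequence for 28.0%, 30.8%, 32.3% and 21.7% of their peaks in the lists of GM (replicates 1, 2) and of 3d DM (replicates 1, 2), where all genes gave 24.1%, 29.8%, 22.8% and 28.6%. Peaks that touched the 5′ UTR were few: 2 of 26, 4 of 28, 5 of 35 and 5 of 26, or 7.69% to 19.2%, against 5.32% to 6.44% of all peaks.

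Some regions appeared on genes whose RNA rose. A region at the start of Adamts5, in the 5′ UTR and coding sequence, was in both 3d DM lists (folds 9.31 and 15.0) and in neither GM list, as was a 3′ UTR region of Adamts4 (3.17 and 2.83). These were 2 of the 49 regions (4.08%), against 2.72% of all regions, and 0 of the 49 were in both GM lists and neither 3d DM list, against 3.83%. Whether the higher RNA let the peak caller find these regions was not tested. Another Adamts4 region, in the 5′ UTR, was in 3 lists, with a fold of 12.5 in GM replicate 2, where its p was 0.000813, and 3.88 and 3.82 in 3d DM. Mmp15 had a 3′ UTR region with folds of 2.70 in GM replicate 2 and 2.70 and 4.90 in 3d DM. The peak with the lowest p held 1 motif match in each of these 2 genes. These matches are printed, since the 2 genes rose the most among those with a peak in 3 or more lists.
Adamts4: gacaaagacctgGGACAgaaaggcaaagg
Mmp15: gataagaggagaGGACAgcccagcttccc
The Adamts4 site is at chr1:171250592-171250620 (mm10, plus strand) in the 5′ UTR, and that of Mmp15 at chr8:95374064-95374092 (plus strand), at position 1557 of the 3′ UTR. The Mmp15 peak spans chr8:95374065-95374393, so its match lies at the start of the peak and not near the middle. Adam12 had a 3′ UTR peak in 1 list of each state (folds 9.62 and 3.78), and Adamts2 a peak in 3d DM replicate 1 with a fold of 8.47.

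Mmp24, a membrane-type protease gene, had a peak region in all 4 lists, although its input RNA was listed at 0, 7.01, 0.08 and 1.54. The region, at chr2:155817708-155818366 in its 3′ UTR (plus strand), had folds of 11.8 and 6.44 in GM against 8.57 and 10.4 in 3d DM, which overlap between the states. BC029722 is a gene on the opposite strand whose last part covers the same stretch, and its input RNA was 169.4 and 117.4 in GM against 109.1 and 159.9 in 3d DM. The lists give BC029722 peaks there too, with folds of 7.44 and 7.47 in GM against 9.39 and 6.73 in 3d DM. In the 390 bases that the 4 Mmp24 peaks share there were 0 motif matches on the Mmp24 strand and 6 on that of BC029722. The match nearest to the middle of this stretch is printed to show the strand on which it is found.
BC029722: gacagttttctcGGACCctggaagggccc
This site is at chr2:155817908-155817936 (mm10, minus strand). The libraries were made with a stranded kit, and whether the counts and peaks used the strand is not given in the sources used here, so signal of the pair cannot be told apart. Peaks of Adam19, Mmp28 and Timp3 also lie over exons of a gene on the opposite strand (Gm16033, 1700020L24Rik and Syn3).

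**Figure D5:**
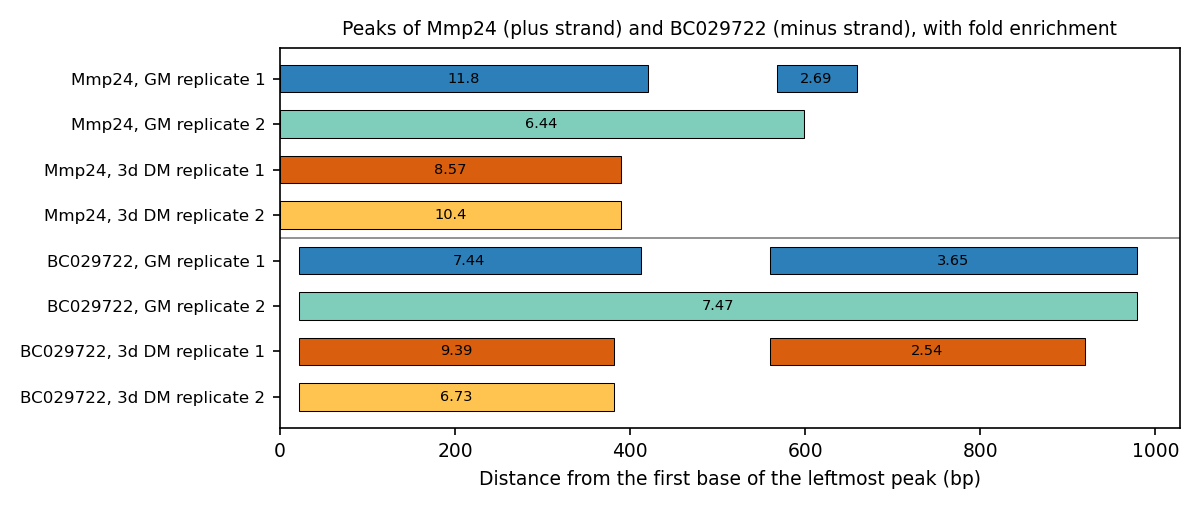
Peaks of Mmp24 and of BC029722, which lies on the opposite strand, by distance along the chromosome from the first base of the leftmost peak (bp), with 1 row for each gene and library and the fold enrichment printed on each bar. In all 4 libraries a peak of each gene covers nearly the same stretch at the left, with folds of 6.44 to 11.8 for Mmp24 and 6.73 to 9.39 for BC029722.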

How the data were processed

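The authors trimmed the reads, aligned them to mm10 with HISAT2 (2.1.0) and called peaks in each IP sample against its input with exomePeak. The deposited peak lists give a p-value and a fold (the ratio of IP over input) for each peak and transcript. RNA values are a normalized signal per Entrez gene, which the authors made with edgeR (TMM by its name) and deposited for the 4 input libraries, and from which reads and depth cannot be recovered. Precision therefore rests on the spread between the 2 replicates of a state, which limma shares across genes. No library was left out.

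Genes were matched by Entrez identifier and the symbols of RefSeq, which name 98.7% of tested genes, and exon lengths came from RefSeq (GRCm38.p6). limma (3.58.1, R 4.3.3) was run on log2(value + 1) with an intensity trend, over the 11406 genes with a value of at least 25.1 in 2 or more of the 4 libraries. With the deposited values its standard errors follow the trend and not a gene's own replicates. In simulated data of these 11406 genes it recovered 177 of 200 planted 4-fold changes with 6 false calls. The simulated noise was independent between genes, lay on the fitted trend and had no shift between libraries, as the fit assumes. In the real data the median-of-ratios factors reach 0.23 (GM replicate 1) and -0.37 (3d DM replicate 1) on the log2 scale. The simulation therefore cannot tell how many of the real calls are false. Enrichment was tested with limma on log2 folds of regions in all 4 lists. Single values were compared with exact permutation tests. Of all peak lines, 95.5% could be placed on GENCODE M21 transcripts of the same identifier and length, and the Adamts5 sequence comes from a later version of its transcript. Alternatives were other filters, pseudocounts of 0.1 and 4, rescaling by median-of-ratios or trimmed-mean factors, the replicate block, stricter peaks, an overlap of 50 bp and each replicate left out, and the rescaled fits with a replicate left out or the block were chosen after seeing the data.

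Genes named are those with an adjusted p under 0.05, the Timp genes, Mmp2, Mmp9, Mmp14, Adam10, Adam17, Adam12, Adam19, Adamts1, Adamts2, Adamts5, those with a peak in all 4 lists, up to 10 called genes of each related list, and 4 state genes. Others named beside them (such as Vcan, Adamts15 and BC029722) were chosen after their values were seen. A gene of the related lists is not reported here. The members and lists were chosen with earlier results of these data known. Calculations used Python 3.11.15 with numpy, pandas and scipy.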

Additional observations from a re-analysis of the deposited data

How the results depend on the processing

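The number of called genes of the families stayed between 9 and 14 of those tested under every filter, pseudocount, trend and rescaling setting (10 as reported), with 1 gene falling each time, but ranged from 0 to 6 when 1 replicate was left out, and after rescaling with 1 replicate left out the counts were 16, 14, 5 and 4. Those fits keep 1 residual degree of freedom and assume that the lone sample varies like the other state, and the cause of the drop was not tested. The labels do not say whether replicates of the same number belong together. The deviations of replicate 1 from the mean of its state correlate between GM and 3d DM at r = 0.29 over the 11406 tested genes. With the replicate block 9 genes were called (12 after rescaling), Adamts1 being the one lost (adjusted p = 0.0592), and 0 peak regions.

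The difference in genes with a peak, -1 as reported, was 3 at a peak p of at most 1e-05, -1.5 at a fold of at least 4, and from -3 to 1 with 1 list left out. Calls of changed enrichment stayed at 0 in all settings. Among the named genes, directions reversed only for ones that were not called: Adam10 (0.044 and 0.047 with median-of-ratios and trimmed-mean rescaling, -0.52 to 0.15 with 1 replicate left out), Timp3 (0.12 and 0.13, -0.51 to 0.29) and, with 1 replicate left out, Adam17 (-0.71 to 0.025), Adam9 (-0.71 to 0.20) and Adamts6 (-0.23 to 1.10). Without a filter, Adamts8, Adamts15, Adamts17 and Mmp17 were called too. The unknown depth sets no lower limit for the genes listed at or near 0.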

Other observations

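The genes that act with these families were counted in the same limma fit, in a list of regulators and a list of substrates. Of 34 regulators (activators, inhibitors and partner proteins), 27 were tested, 4 rose and 6 fell, with a median log2 fold change of 0.03, where 7.01% and 9.96% of all tested genes rose and fell. The genes that rose were Adamtsl1, Adamtsl2 and Adamtsl3, secreted proteins built like Adamts enzymes without the protease part, and Tspan33, a tetraspanin that accompanies Adam10. Adamtsl2 went from 3.16 and 2.01 in GM to 322 and 525 in 3d DM and Adamtsl1 from 17.0 and 3.03 to 173.4 and 157, both far above the GM libraries. Among the genes that fell, Plaur, the urokinase receptor, went from 521 and 1153 to 32.6 and 61.0, and Plau, the urokinase protease itself, from 1289 and 1160.1 to 361 and 724. Their log2 fold changes were -4.09 ± 0.48 and -1.26 ± 0.43. Nid1, Cd44 and Fbln1, matrix and surface proteins that bind or are cut by these enzymes, fell by 2.72, fell by 1.69 and fell by 2.32 on the log2 scale. After rescaling, 8 regulators were called higher and 6 lower, against 12.0% and 11.2% of all tested genes.

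Of 44 substrates, 31 were tested, 7 rose and 4 fell as deposited, with a median of 0.09. Over all tested genes 7.01% rose and 9.96% fell. Ncam1, an adhesion molecule of myoblasts, went from 1524 and 1186 to 6414 and 8894 (log2 2.49 ± 0.41), and the small proteoglycan Bgn from 1086 and 1106 to 3824 and 4590.2 (1.93 ± 0.41). Areg and Ereg, ligands of the EGF receptor that Adam17 releases, went from 101.7 and 180.6 to 9.86 and 7.87 and from 91.2 and 166.6 to 23.3 and 35.6. In these 4 genes the groups did not overlap. Versican (Vcan), a main target of Adamts1, Adamts4 and Adamts5, was at 1843 and 1979 in GM against 831 and 981 in 3d DM, a change of -1.08 ± 0.42 that was called only after rescaling (adjusted p = 0.0592 and 0.0315). Dll1, Fbn1, Thbs1 and Ephb2 also rose and Vcam1 and Sdc3 fell. Dcn passed the test although its groups overlapped, at 429.9 and 17.1 in GM against 409.1 and 684.9 in 3d DM. After rescaling the counts were again 7 and 4, where 12.0% and 11.2% of all tested genes rose and fell. Dcn, Thbs1, Ephb2 and Sdc3 were then no longer called. Hspg2, Sdc2 and Cdh2, all higher in 3d DM, were called with Vcan in their place.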
